A study of Macaca mulatta with 449 samples.

Results

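The microglia genes described here are *CSF1R*, *C1QB*, *C1QC*, *CX3CR1*, *P2RY12*, *TREM2*, *TYROBP*, *TMEM119* and *PTPRC*, 9 genes chosen by symbol. For 8 of them a row was matched among the 30807 genes of the count table, and *TMEM119* was not matched and is not analysed here. The table held RNA-seq libraries from 8 healthy rhesus macaques, with 1 library from each of 51 brain sub-regions of each animal. The 4 males were animals 2 and 3 (10 years old), 7 (4 years) and 8 (3.8 years), and the 4 females were animals 4 (3.2 years), 6 (10 years), 10 (5 years) and 11 (9.8 years). Animals 2, 3, 6 and 11 were labelled mid-aged and the other 4 young. The labels gave no treatment. The sub-regions fell into 16 region groups: the cortex (31 sub-regions), the hippocampus (HIP, 3 sub-regions), the striatum (STR, 3), the cerebellum (CB) and, with 1 sub-region each, the olfactory bulb (OB), the entorhinal and perirhinal cortex (PA), the amygdala (AMY), the globus pallidus (GP), the corpus callosum (CC), the thalamus (THA), the hypothalamus (HTHA), the ventral tegmental area (VTA), the substantia nigra (SN), the pons (PON), the medulla oblongata (MO) and the pituitary (PIT).

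Microglia are the resident macrophages of the brain. They depend on signalling through the receptor *CSF1R*, survey the tissue with fine processes guided by receptors for nucleotides and chemokines, make C1q of the complement system, and take up debris and lipids through receptors such as *TREM2*. Macrophages at the borders of the brain carry several of the same genes, and *PTPRC* is carried by all leukocytes. A library from bulk tissue holds every cell type of the dissected piece, so that fewer microglia and less RNA of a gene per cell cannot be told apart in any value below.

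Levels are given as CPM, the count of a gene relative to the size of its library, with library sizes scaled by the trimmed mean of M values (TMM). They compare a gene between samples and are not scaled to transcript length, so that levels of different genes are not compared. Libraries held between 7784678 and 31083490 counts, with a median of 10698602. All 8 genes had counts in every library, and the lowest count was 3. The medulla library of animal 6 stood apart from the others: 10 neuronal marker genes summed to 405 CPM there and to 5971 to 10415 CPM in the other 7 animals, and 9 oligodendrocyte genes to 93556 CPM against 29977 to 65119 CPM. In the hypothalamus the neuronal genes summed to 9595 CPM in animal 6 and to 4080 to 6515 CPM in the others.

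All 8 genes had their highest mean in the globus pallidus, the medulla oblongata or the corpus callosum, and their lowest in the cortex, the cerebellum or the pituitary. *CSF1R*, the receptor for the growth factors CSF1 and IL34, reached 138 ± 82.7 CPM (SD, n = 8 animals) in MO, 137 ± 45.1 in GP, 122 ± 47.4 in CC and 119 ± 30.5 in SN, and was at 29.4 ± 4.67 CPM in the cortex, 23.99 ± 9.38 in PIT and 22.5 ± 7.40 in CB. The GP libraries ran from 74.8 to 196 CPM with a median of 139, and the cortex means of the 8 animals from 22.4 to 35.8 with a median of 30.5. The MO libraries ran from 72.6 to 306 CPM with a median of 101. Neither group overlapped the cortex, and the highest MO library was that of animal 6.

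*C1QB* and *C1QC* encode chains of C1q, the molecule that starts the classical complement pathway. *C1QB* was at 63.3 ± 23.96 CPM in GP, with a range of 40.3 to 113 and a median of 59.5, at 49.1 ± 14.6 in SN and at 15.0 ± 2.14 in the cortex. *C1QC* was at 43.3 ± 14.6 CPM in GP, 36.3 ± 8.96 in SN and 10.3 ± 1.68 in the cortex. In CB the levels were 7.87 ± 3.44 and 6.18 ± 1.75 CPM, below the animal's own cortex in 8 of 8 animals for both genes.

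*CX3CR1*, the receptor for the neuronal chemokine fractalkine, was at 81.6 ± 27.3 CPM in GP, 70.7 ± 39.7 in MO, 65.3 ± 23.3 in CC and 20.4 ± 4.13 in the cortex. *P2RY12*, a receptor for ADP, was at 127 ± 36.4 CPM in GP, with a range of 101 to 186, and at 95.4 ± 43.01 in CC and 35.1 ± 6.16 in the cortex, with a range of 26.4 to 42.8. In PIT the means were 1.73 ± 1.17 CPM for *CX3CR1* and 1.42 ± 1.48 CPM for *P2RY12*, and all 8 libraries of both genes lay below those of every other group.

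*TREM2*, a receptor for lipids and lipoproteins, and *TYROBP*, the adaptor through which it signals, stood at 17.5 ± 6.50 and 17.6 ± 5.53 CPM in CC, and at 17.2 ± 5.66 and 17.5 ± 6.19 CPM in GP. In the cortex they were at 2.62 ± 0.538 and 2.74 ± 0.3999 CPM. The CC libraries of *TREM2* ran from 11.1 to 32.4 CPM with a median of 16.5, and the cortex means from 1.64 to 3.34, without overlap. *PTPRC*, the phosphatase CD45, was at 22.1 ± 15.2 CPM in MO, 21.5 ± 8.68 in CC, 18.8 ± 4.604 in GP, 3.67 ± 1.36 in CB and 3.65 ± 0.566 in the cortex.

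**Figure D1:**
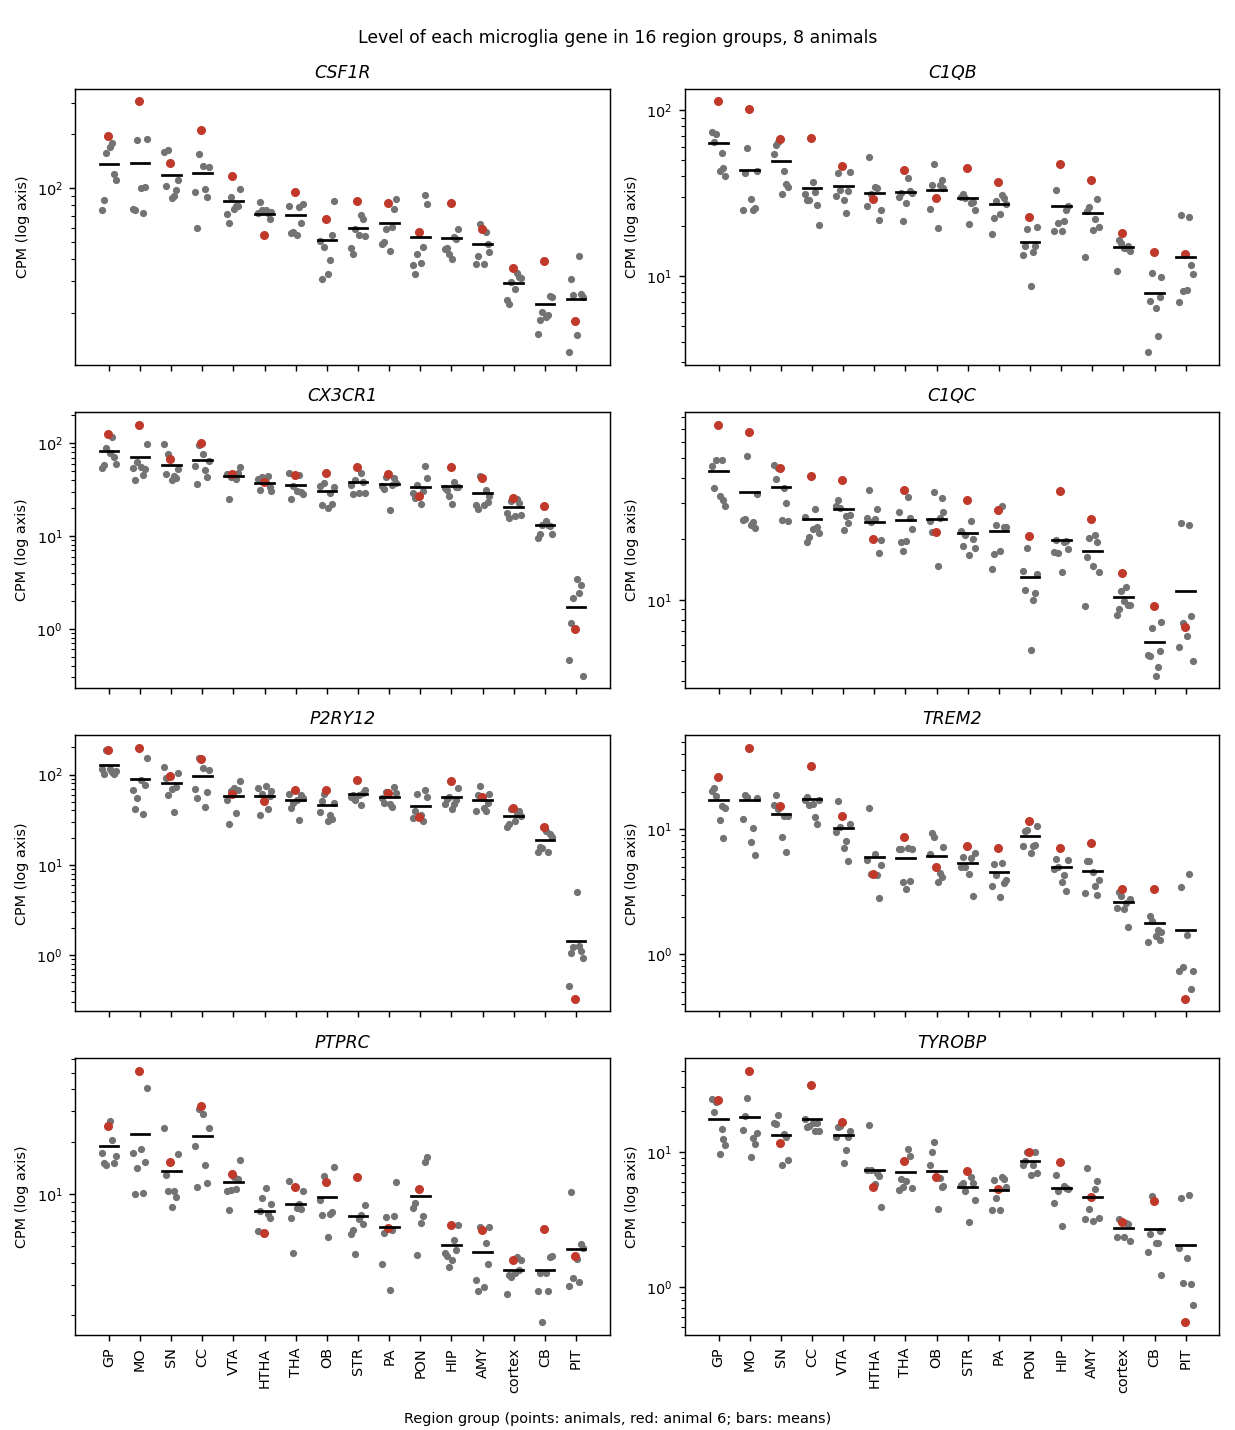
Level of each of the 8 microglia genes (CPM, log axis) in 16 region groups, with 1 point per animal (animal 6 in red) and a bar at the mean. Groups with several sub-regions are combined within each animal. *CX3CR1* and *P2RY12* drop to means of 1.73 and 1.42 CPM in PIT, while *CSF1R* is at 23.99 CPM there and at 29.4 CPM in the cortex.

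To ask how the groups differed from the cortex, counts of the sub-regions of a group were summed within each animal, and each group was tested against the cortex with the animal as a block by edgeR's quasi-likelihood test. A gene was called at an FDR below 0.05, adjusted over the 17086 genes tested, with more than a 2-fold change, an absolute log2 fold change (log2FC) above 1. Of the 120 pairs of a gene and a group, 62 were called higher than the cortex, 2 were called lower and 56 were not called, while over all genes and the same 15 comparisons 11.9% were called higher and 12.7% lower. By the FDR alone 98 of the 120 pairs were higher and 10 lower, where 60.7% of all tests passed. All 8 genes were called higher in GP (16.6% of all genes), CC (19.4%), SN (13.8%) and MO (15.3%), and in these groups every animal lay above its own cortex for every gene. In VTA 7 of 8 were called (14.1% of all genes), and *P2RY12* stood at a log2FC of 0.65 (SE 0.20). Without the medulla and hypothalamus libraries of animal 6 the call of *P2RY12* in MO was lost, at a log2FC of 0.999. Without animal 6 altogether *P2RY12* was called there, at 1.01, and the call of *C1QB* in CC was lost, at 0.9996. Without animal 11 the call of *CX3CR1* in VTA was lost, at 0.98.

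*TREM2*, *TYROBP* and *PTPRC* had the largest of these changes in GP, CC and MO. *TREM2* rose by a log2FC of 2.66 (SE 0.20) in CC and 2.62 (SE 0.20) in GP. *TYROBP* rose by 2.61 (SE 0.20) in CC and 2.60 (SE 0.20) in MO, and *PTPRC* by 2.47 (SE 0.22) in CC. In GP *CSF1R* rose by 2.15 (SE 0.18), *C1QB* by 1.99 (SE 0.18), *C1QC* by 1.98 (SE 0.18), *CX3CR1* by 1.94 (SE 0.19) and *P2RY12* by 1.79 (SE 0.20). The median log2FC of the 8 genes was 2.07 in GP, 1.89 in MO, 1.79 in SN and 1.77 in CC, and the median over all genes tested was -0.05, -0.04, -0.06 and -0.06.

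In THA and HTHA 6 of the 8 genes were called higher (9.59% and 10.7% of all genes), without *CX3CR1* and *P2RY12*, and none was called lower in HTHA (8.08% of all genes). Among the HTHA libraries that of animal 3 held 14.8 CPM of *TREM2*, where the group had a median of 4.78, and 35953 CPM of the oligodendrocyte genes, where the others held 3487 to 21016. Without animal 3 the calls of *TREM2* and *C1QB* in HTHA were lost, at log2FC of 0.90 and 0.96. In OB 5 were called (12.2% of all genes), without *CSF1R*, *CX3CR1* and *P2RY12*. In PON 3 were called (11.3% of all genes): *TREM2* with a log2FC of 1.73 (SE 0.20), *TYROBP* with 1.60 (SE 0.20) and *PTPRC* with 1.35 (SE 0.22). In PA *CSF1R* at 1.06 (SE 0.17) and *C1QC* at 1.05 (SE 0.18) were called (5.39% of all genes), and in STR *C1QC* at 1.02 (SE 0.18) was (8.77% of all genes), a call lost without animal 2 or animal 6, with log2FC of 0.97 and 0.996. None of the 8 was called lower in STR (8.34% of all genes). The other 7 genes lay just under the limit in STR or below it, from 0.78 for *P2RY12* to 0.999 for *TREM2*, and calls of *TREM2* (without animal 3, 4, 7 or 10, at 1.01 to 1.05), *CSF1R* (without 11, at 1.01), *C1QB* and *TYROBP* (without 7, at 1.02 and 1.03) and *PTPRC* (without 4, at 1.03) were gained there. With DESeq2, with its size factors in edgeR, or with 51 sub-regions as levels, 6 of the 8 genes were called in STR, and with the filter on counts above 1 in 3 samples or more, 0 in STR and 0 in PA, where *CSF1R* and *C1QC* stood at 0.99 and 0.98.

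In AMY and HIP none of the 8 genes passed the 2-fold limit (5.1% and 5.98% of all genes were called higher, and 4.69% and 6.66% lower), with log2FC of 0.31 to 0.79 and of 0.42 to 0.93. Without animal 7 *TYROBP* was called higher in HIP, at 1.02. The FDR alone was passed by 7 genes in AMY and 7 in HIP, all higher than the cortex, and in neither group by *PTPRC*. In AMY 38.2% of all genes passed the FDR alone, and over the 15 comparisons 60.7% of all tests did. In CB none was called in either direction, where 10.1% of all genes were called higher and 15.7% lower. By the FDR alone 6 genes passed in CB, where 66.5% of all genes did in either direction. All 6 were lower than the cortex, from -0.41 (SE 0.17) for *CSF1R* to -0.98 (SE 0.18) for *C1QB*. *TYROBP* and *PTPRC* stood at -0.08 (SE 0.20) and -0.02 (SE 0.21). Without animal 4, 6 or 11 *C1QB* was called lower, at -1.02, -1.07 and -1.06.

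**Figure D2:**
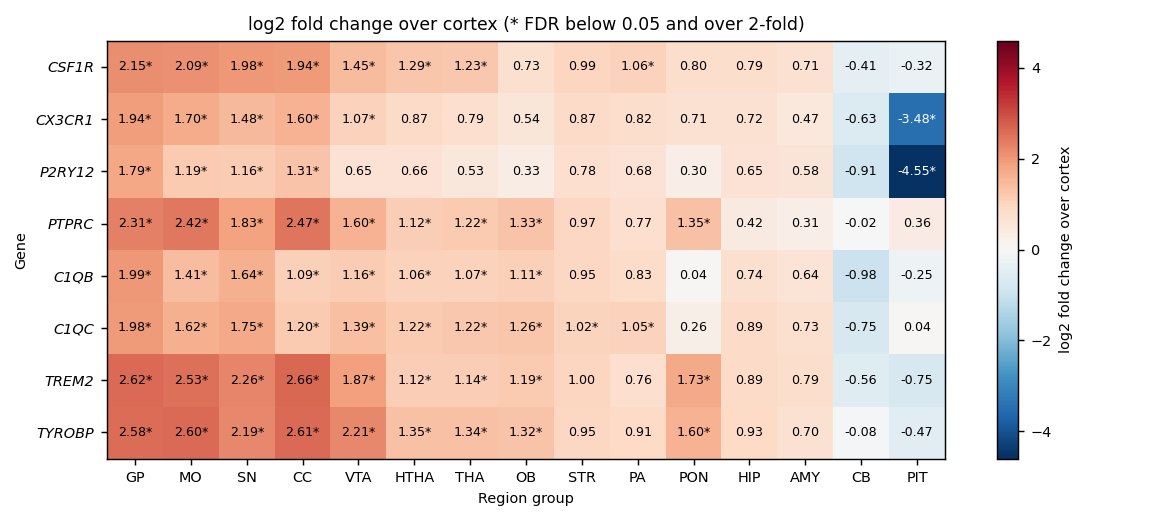
log2 fold change of each microglia gene in each region group over the cortex, with marks where the FDR was below 0.05 and the change over 2-fold. All 8 genes are marked in GP, MO, SN and CC, and in PIT the marks are those of *CX3CR1* at -3.48 and *P2RY12* at -4.55.

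Neighbours in the order of mean levels mostly did not differ beyond their spread. Of the 120 pairs of neighbouring groups over the 8 genes, 17 had an FDR below 0.05 by edgeR. Neighbours were chosen by the order of each gene's own means, which makes their differences small in advance. The share of 52.9% that passed over all genes in the same comparisons is therefore not a like background. For *CSF1R* the order began MO, GP, CC and SN, and MO did not pass against any of the other 3. MO came first through the library of animal 6: without it the MO mean was 114 ± 51.2 CPM (n = 7). This was below the means of GP, CC and SN over all 8 animals. With animal 6 left out of every group GP came first, at 128.1 CPM, then SN at 115.9, MO at 114.3 and CC at 108.8 CPM. For *TYROBP* and *PTPRC*, where MO also came first, its mean without that library was 15.0 ± 5.30 and 17.9 ± 10.5 CPM. Both were below the means of GP and CC over all 8 animals. With animal 6 left out of every group, *TYROBP* was at 16.5 CPM in GP, 15.6 in CC and 15.0 in MO. *PTPRC* was then at 19.95 CPM in CC, 17.95 in MO and 17.93 in GP. In the order of *CSF1R*, SN exceeded VTA by 0.52 (SE 0.17), no step from VTA down to AMY passed, and AMY exceeded the cortex by 0.71 (SE 0.17). For *P2RY12* the top group differed from all others, GP exceeding CC by 0.49 (SE 0.20). For *C1QB* GP did not pass against SN, and for *C1QC* not against SN and MO. *PTPRC* had no step that passed among 15. At the low end the cortex exceeded CB by 0.91 (SE 0.20) for *P2RY12* and 0.63 (SE 0.18) for *CX3CR1*, and CB exceeded PIT by 3.63 (SE 0.26) and 2.85 (SE 0.23).

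The 8 genes did not move by equal amounts. For each pair of genes the log2 ratio in a group was compared with that in the cortex of the same animal, on the log2(CPM + 0.5) scale, by an exact two-sided sign-flip permutation test over 8 animals, with Benjamini-Hochberg adjustment over all 420 tests. The smallest p this exact test allows is 0.00781, which 122 of the 420 tests reached. Tests at this limit share the same adjusted p, which does not rank them. Of the 420 tests 159 had an adjusted p below 0.05. Pairs of other genes were not tested, so that no share over all genes stands beside this count. The pseudocount understates changes of genes at low CPM, such as *TREM2* and *TYROBP* in the cortex.

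Outside the pituitary the widest gap was that of *C1QB* and *TREM2* in PON. Relative to the cortex *C1QB* fell short of *TREM2* there by a mean difference of -1.52 (SD 0.311, lower in 8 of 8 animals) and in CC by -1.40 (SD 0.306, 8 of 8), both with an adjusted p of 0.0269 by the exact permutation test. In PON *C1QB* was at 15.9 ± 4.34 CPM, with 4 animals above and 4 below their own cortex, while *TREM2* was at 8.84 ± 1.89 CPM, with a range of 6.45 to 11.7 that lay above all cortex means. *C1QB* also fell short of *PTPRC*, by -1.22 (SD 0.602) in CC and -1.16 (SD 0.559) in PON, in 8 of 8 animals each (exact permutation test, adjusted p = 0.0269).

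Pairs of genes whose products work together were compared in the same way. *C1QB* against *C1QC* stood at 0.01 (SD 0.195) in GP and -0.14 (SD 0.313) in CC, and *TREM2* against *TYROBP* at 0.05 (SD 0.218) in GP and 0.04 (SD 0.112) in CC, none of which passed. The first pair passed in THA at -0.14 (SD 0.0869, 8 of 8 animals) and in VTA at -0.23 (SD 0.179, 7 of 8), and the second in CB at -0.37 (SD 0.327, 8 of 8) and in VTA at -0.34 (SD 0.251, 7 of 8). *CSF1R* exceeded *P2RY12* relative to the cortex by 0.64 (SD 0.304) in CC, 0.83 (SD 0.544) in SN and 0.91 (SD 0.620) in MO, in 8 of 8 animals each (exact permutation test, adjusted p = 0.0269).

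**Figure D3:**
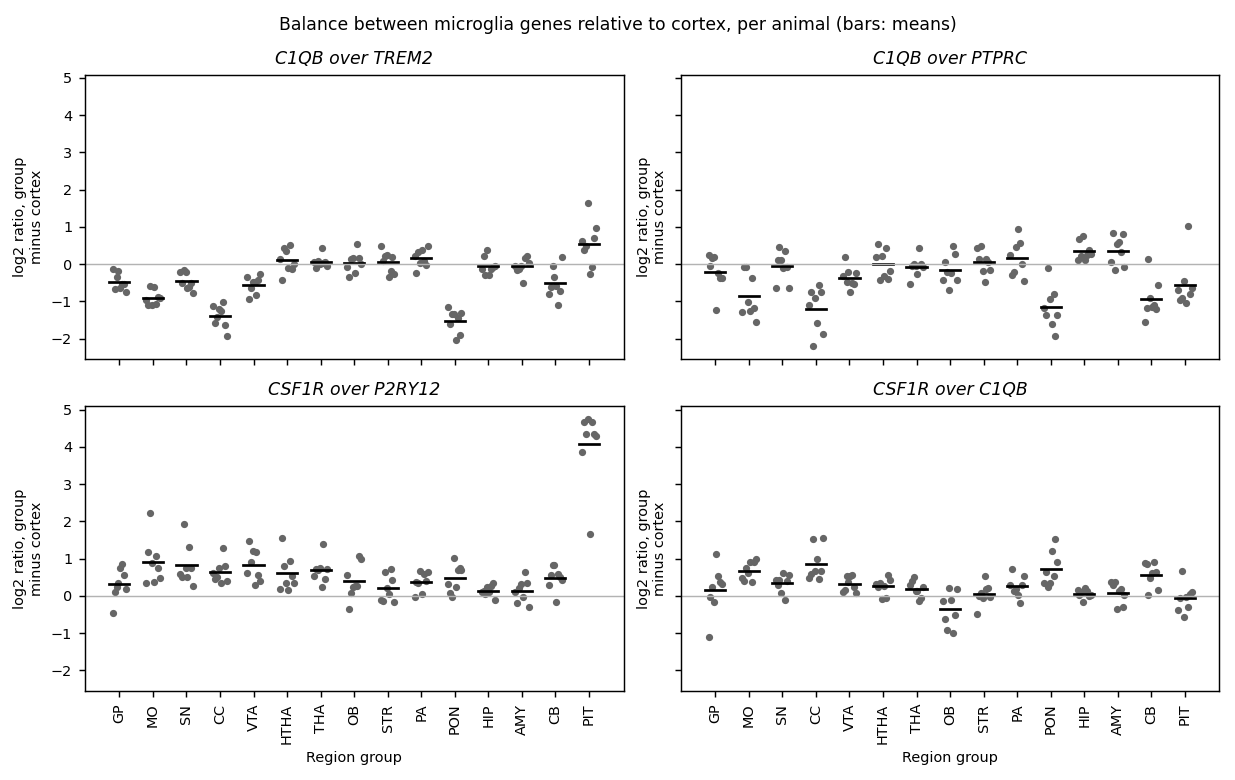
Difference between region groups and the cortex in the log2 ratio of pairs of microglia genes, from log2(CPM + 0.5), with 1 point per animal and a bar at the mean. *C1QB* over *TREM2* lies below 0 in all 8 animals in CC and PON.

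The pituitary separated the genes most widely. It lies outside the blood-brain barrier and has macrophages of its own. *P2RY12* was called lower than the cortex at a log2FC of -4.55 (SE 0.26) and *CX3CR1* at -3.48 (SE 0.23), in a group where 24.3% of all genes were called lower and 20.5% higher. The raw counts in the 8 PIT libraries ran from 3 to 77 for *P2RY12* and from 3 to 53 for *CX3CR1*, and from 130 to 583 for *CSF1R*. *CSF1R* stood at -0.32 (SE 0.18), *C1QB* at -0.25 (SE 0.18), *C1QC* at 0.04 (SE 0.18) and *PTPRC* at 0.36 (SE 0.22), none with an FDR below 0.05. *TREM2* at -0.75 (SE 0.22) and *TYROBP* at -0.47 (SE 0.22) passed the FDR and not the 2-fold limit. The FDR alone was passed by 80.3% of all genes in PIT. Without animal 8 *TREM2* was called lower at -1.22. *CSF1R* exceeded *P2RY12* relative to the cortex by 4.07 (SD 1.02) and *CX3CR1* fell short of *PTPRC* by -3.67 (SD 0.930), in 8 of 8 animals each (exact permutation test, adjusted p = 0.0269).

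Animals 3 and 8 stood above the others in PIT. *C1QC* was at 24.04 and 23.3 CPM in them and at 4.99 to 8.35 CPM in the other 6 animals, and *TREM2* was at 3.43 and 4.41 CPM against 0.438 to 1.43 CPM. The 9 genes of border macrophages, such as *CD163*, *LYVE1* and *STAB1*, summed to 167 and 199 CPM in these 2 animals and to 68.4 to 130 CPM in the others, with *CD209* at 0 in all PIT libraries. Their mean sum was 120 CPM in PIT and 59.6 CPM in the cortex. The 8 anterior pituitary genes summed to 38071 CPM in animal 7, the lowest, and to 245971 and 355294 CPM in animals 11 and 6, the highest. The part of these lists in the pituitary levels was not tested.

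Within the cortex the levels differed between lobes. The 31 sub-regions were summed to the frontal (10 sub-regions), parietal (9), temporal (4), occipital (3) and limbic (5) cortex of each animal. By edgeR's test over the 5 lobes with the animal as a block, all 8 genes had an FDR below 0.05, as did 60.2% of the 17925 genes tested, and the occipital cortex was lowest for all 8. *CSF1R* was at 34.7 ± 5.03 CPM in the frontal and 19.5 ± 4.89 CPM in the occipital cortex, with ranges of 26.7 to 40.3 and 13.7 to 27.6 that overlapped slightly. *P2RY12* was at 41.5 ± 7.57 and 22.9 ± 5.74 CPM. The log2 difference between the highest and the lowest lobe was 0.85 for *P2RY12* (FDR 9.59e-09), 0.83 for *CSF1R* (FDR 3.08e-14), 0.72 for *C1QC*, 0.66 for *CX3CR1* and 0.63 for *C1QB*. It was 0.52 for *TYROBP*, highest in the limbic cortex, 0.51 for *TREM2* and 0.49 for *PTPRC* (FDR 4.28e-05), highest in the temporal cortex. These FDRs are those of the test over all 5 lobes, and single pairs of lobes were not tested. Of 30 other microglia genes 26 passed this test and 24 were lowest in the occipital cortex, while 26.2% of all genes tested passed and were lowest there. The low occipital level was shared by genes of other cells: 7 of 8 border macrophage genes, 5 of 9 astrocyte genes and 4 of 8 endothelial and pericyte genes passed and were lowest there, against 2 of 10 neuronal and 0 of 9 oligodendrocyte genes, of which 9 and 9 passed.

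**Figure D4:**
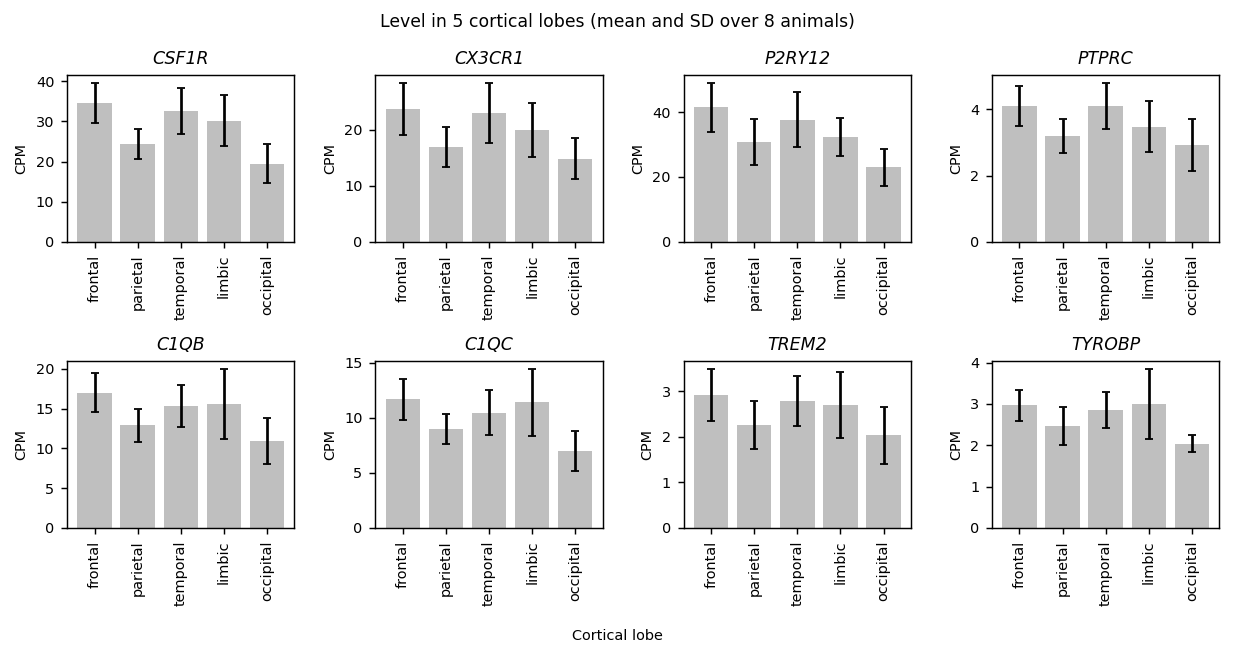
Level of each microglia gene (CPM) in 5 cortical lobes of 8 animals. The occipital mean is the lowest in all 8 panels, at 19.5 CPM for *CSF1R* against 34.7 CPM in the frontal cortex.

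The means of single cortical sub-regions spanned a 1.96-fold to 2.62-fold range. *CSF1R* was highest in the temporal polar gyrus at 49.9 ± 12.1 CPM and lowest in the cuneus gyrus at 19.04 ± 4.30 CPM. *C1QB* was highest in the anterior cingular gyrus at 22.5 ± 10.0 CPM and lowest in the cuneus gyrus at 9.60 ± 2.74 CPM. The temporal polar gyrus led for *CSF1R*, *CX3CR1*, *P2RY12*, *TREM2* and *PTPRC*, and the anterior cingular gyrus for *C1QB*, *C1QC* and *TYROBP*. Of the 20 sub-regions outside the cortex, 12 for *P2RY12* and 17 for *TYROBP*, the fewest and the most, lay above the highest cortical mean.

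Within HIP, STR and CB no gene passed the test over sub-regions at an FDR below 0.05 and a span over 2-fold, limits that 4.74%, 12.2% and 0.254% of all genes passed. By the FDR alone 4 genes passed in HIP (31.6% of all genes), 0 in STR (55.6%) and 0 in CB (0.841%). In HIP all 4 were highest in the CA3 field and lowest in the dentate gyrus. The log2 difference between these was 0.53 for *P2RY12* (FDR 0.00107), 0.49 for *CX3CR1* (FDR 0.000962), 0.41 for *CSF1R* (FDR 0.00216) and 0.40 for *C1QB* (FDR 0.0469). The FDRs are those of the test over all sub-regions of HIP, and CA3 was not tested against the dentate gyrus alone. *P2RY12* was at 68.0 ± 21.6 CPM in CA3, 55.3 ± 11.3 in CA1 and 46.5 ± 12.9 in the dentate gyrus.

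The ligands of *CSF1R* differed in pattern from each other. *CSF1* was at 81.5 ± 15.2 CPM in CC, 53.2 ± 25.1 in MO, 47.1 ± 10.1 in VTA, 43.9 ± 10.9 in GP and 6.64 ± 1.26 in the cortex, and rose by a log2FC of 3.55 (SE 0.19) in CC and 2.68 (SE 0.18) in GP. In OB, where *CSF1R* was not called, *CSF1* was at 42.9 ± 6.35 CPM. *IL34* was at 122 ± 42.3 CPM in GP, a log2FC of -0.05 (SE 0.13), and at 99.7 ± 24.8 CPM in CC, a log2FC of -0.33 (SE 0.13). In PIT *IL34* was called lower, at 29.2 ± 12.7 CPM and a log2FC of -2.10 (SE 0.13), and *CSF1* was at 6.77 ± 5.20 CPM.

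**Figure D5:**
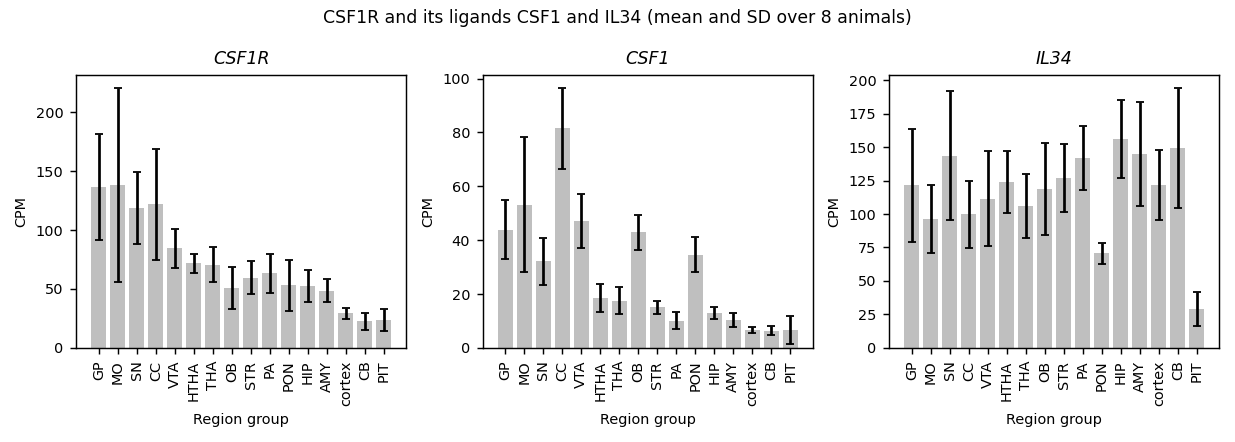
Levels of *CSF1R* and of its ligands *CSF1* and *IL34* (CPM) across the 16 region groups in 8 animals. *CSF1* reaches 81.5 CPM in CC from 6.64 CPM in the cortex, while *IL34* is at 99.7 CPM in CC and falls to 29.2 CPM in PIT.

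Of the 11 tested ligands and signalling partners, 9 were called higher and 1 lower in GP, 7 and 0 in CC, 8 and 1 in SN, 7 and 0 in MO, and 1 and 5 in PIT. Over all genes the shares called higher and lower were 16.6% and 18.4% in GP, 19.4% and 24.8% in CC, 13.8% and 14.2% in SN, 15.3% and 13.4% in MO, and 20.5% and 24.3% in PIT, and the counts of the following lists are read against the same shares. The kinase *SYK*, which acts downstream of immune receptors, rose by 2.22 (SE 0.16) in GP. The phospholipase *PLCG2* rose by 1.71 in GP, the lipid phosphatase *INPP5D* by 1.69, the ADP receptor *P2RY13* by 2.50 and *ENTPD1*, an enzyme that breaks down ATP and ADP outside the cell, by 1.66. *APOE*, an apolipoprotein that TREM2 binds, rose by 1.46 in GP, stood at 0.16 in CC and was called lower in PIT at -2.39. *C1S*, a protease that joins C1q in the C1 complex, was called lower in GP at -1.16 and in CB at -3.17. In PIT *INPP5D* at -2.25 and *P2RY13* at -2.16 were called lower, and *PTPN6*, a phosphatase of blood cells, was called higher at 2.32. *C1R* did not pass the filter on low counts.

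Of 30 other tested microglia genes, 29 were called higher in GP, 28 in CC, 27 in SN, 30 in MO and 18 in PON, and 0 were called lower in these groups (in PON 11.3% of all genes were called higher and 13.9% lower). Their median log2FC was 2.17 in GP and 2.02 in CC. *C3*, the central complement component, rose by 2.84 in GP and 3.12 in CC, *FCER1G*, an adaptor of Fc receptors, by 2.76 in GP, and *ITGB2*, a chain of leukocyte integrins, by 2.73 in GP and 2.90 in CC. In PIT 5 were called higher, among them *RUNX1* at 5.25, a transcription factor that was also at 4.76 in OB, and 14 lower, among them *SELPLG* at -2.76, *APBB1IP* at -2.58 and *LPAR5* at -2.44. In CB 2 were called higher and 1 lower (10.1% and 15.7% of all genes), the latter the transcription factor *SALL1* at -1.11.

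Of 13 tested genes known to rise in activated or lipid-laden microglia, 12 were called higher in CC, 12 in MO and 11 in GP, with median log2FC of 3.19, 2.95 and 2.74. The cell types that held this RNA were not tested. *CD74*, the invariant chain of class II antigen presentation, rose by 4.03 (SE 0.25) in CC, *CLEC7A*, a receptor for glucans, by 4.47 (SE 0.33) and *CCL2*, a chemokine, by 4.58 (SE 0.47), while *GPNMB* was called lower in GP at -1.23 (SE 0.30). Of 7 tested genes of the complement cascade, 4 were called higher in GP, among them the receptors *C3AR1* at 2.35 and *C5AR1* at 2.07. In PIT 3 of the 7 were called higher (20.5% of all genes), among them the regulators *SERPING1* at 1.68 and *CD46* at 1.04.

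Some markers of other cells moved with the microglia genes, while neuronal genes were lower in CC and GP than in the cortex. The 9 oligodendrocyte genes summed to 107807 CPM in CC (95002 to 126254 over animals), 66279 in GP (50483 to 107519), 52855 in MO and 25281 in SN, and to 3202 CPM in the cortex (2603 to 3571) and 36.4 in PIT (20.1 to 56.5). All 9 were called higher than the cortex in STR, GP, CC, THA, HTHA, VTA, SN, PON and MO. The 10 neuronal genes summed to 508 CPM in CC (258 to 823), 4023 in GP (2058 to 5315) and 13488 in the cortex (12762 to 14343). The border macrophage genes summed to 122 CPM in GP (84.2 to 167), 99.5 in CC (61.6 to 133) and 59.6 in the cortex (52.1 to 69.0), and of 8 tested 3 were called higher in GP, *MS4A7*, *MRC1* and *CD163*, and 1 lower, *F13A1*. The blood leukocyte genes summed to 4.43 CPM in the cortex, 7.60 in GP and 36.9 in SN, and in SN *MPO* made up 30.0 CPM of this. Of 7 tested choroid plexus genes, 7 were called higher in CC (median log2FC 4.82), 5 in MO (3.55) and 5 in GP (1.58), with 2 lower in MO and 2 in GP. Of 5 ependymal genes 3 were called higher in CC (2.32), 2 in MO and 1 in GP, with 1 lower in MO and 2 in GP. Of 5 genes of oligodendrocyte precursors 3 each were called higher in GP, CC, SN and MO. The choroid plexus genes summed to 902 CPM in CC (260 to 2688), 222 in MO (45.3 to 523) and 20.1 in the cortex (13.3 to 27.4). Astrocyte genes were called in both directions, 2 of 9 higher and 4 lower in CC. The part of these cells in the levels of the 8 genes was not tested.

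Across the 51 sub-region means of log2 CPM, Pearson's r between pairs of the 8 genes ran from 0.57, for *P2RY12* and *PTPRC*, to 0.99, for *C1QB* and *C1QC*, and without PIT the former was 0.83. The points share animals, library scaling and mixtures of cells, and the values are a description. Across the deviations of all libraries from their sub-region means, r was 0.76 for *C1QB* and *C1QC*, 0.72 for *CSF1R* and *CX3CR1*, 0.69 for *CX3CR1* and *P2RY12*, 0.45 for *TREM2* and *TYROBP*, and 0.11 for *TYROBP* and *PTPRC*. It was 0.60 for *C1QB* and *TYROBP*, 0.58 for *CSF1R* and *PTPRC*, 0.56 for *C1QC* and *TYROBP* and 0.54 for *P2RY12* and *PTPRC*. The median counts per library were 32 for *TREM2*, 36.5 for *TYROBP* and 46 for *PTPRC*, and 380 for *CSF1R*. The part of counting error in these correlations was not tested.

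Among 12123 named genes with a mean of at least 1 CPM, the 10 whose profile over the 51 sub-regions was most like the mean standardized profile of the 8 had r between 0.978 and 0.992, where the median gene had -0.05. They were *BIN2*, *LAPTM5*, *TREML1*, *NCKAP1L*, *PLCB2*, *CYBB*, *FCGR1A*, *ALOX5AP*, *P2RY13* and *IRF8*. Over the deviations of single libraries the 10 most alike were *C5AR1*, *C3*, *LAPTM5*, *MS4A7*, *CYBB*, *GPR34*, *SLC2A5*, *SELPLG*, *P2RY13* and *SRGN*, with r between 0.653 and 0.764, where the median gene had -0.02.

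Animals differed from each other over the whole brain. In animal 6 the mean deviation from the sub-region means was 0.38 on the log2 scale for *CSF1R*, 0.43 for *C1QC* and 0.20 for *TYROBP*, and its library was above the mean in 45, 46 and 32 of 51 sub-regions. *CSF1R* was above the mean in 5 of 51 sub-regions in animal 2 and in 3 of 51 in animal 3. *TREM2* in animal 10 was above the mean in 1 of 51 sub-regions, with a mean deviation of -0.54, while *CSF1R* was above it in 36 of 51 in the same animal.

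Age stage and sex were tested in each of the 16 groups and in the sum of all sub-regions, each with the other as a covariate, at an FDR below 0.1 and more than a 2-fold change. With age stage 0 of 136 tests of the 8 genes were called by edgeR (0.0141% over all genes), and 14 had an unadjusted p below 0.05 (5.66% over all genes), 12 of them higher in mid-aged animals. *TREM2* was higher in mid-aged animals in 16 of 17 fits, 6 of them at an unadjusted p below 0.05, and over all sub-regions its level was 5.23 ± 1.02 CPM in the 4 mid-aged animals and 3.73 ± 0.862 CPM in the 4 young ones (log2FC 0.51, SE 0.22, FDR 0.972). The 17 fits share animals and are not independent. Without animal 6, 7 of the 136 tests had an unadjusted p below 0.05, 2 with the mid-aged animals higher and 5 with them lower, and the log2FC of *TREM2* over all sub-regions was 0.38 (SE 0.24). *P2RY12* in SN was at 103 ± 12.4 CPM in the mid-aged group and 59.7 ± 15.4 CPM in the young group, without overlap (FDR 0.401), and *CX3CR1* in PIT at 0.725 ± 0.402 and 2.73 ± 0.581 CPM, the other way (FDR 0.283 by edgeR, called by DESeq2). Groups that did not overlap were found in 3 tests with mid-aged animals higher (1.74% over all genes) and in 2 with them lower (2.03%).

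With sex 0 of 136 tests were called by edgeR (0.104% over all genes), and 31 had an unadjusted p below 0.05 (3.47% over all genes), 27 of them higher in females. *P2RY12* was higher in females in 16 of 17 fits, and over all sub-regions was at 50.3 ± 4.87 CPM in 4 females and 37.6 ± 1.68 CPM in 4 males, without overlap (log2FC 0.44, SE 0.09, FDR 0.576). Without animal 6, 19 tests had an unadjusted p below 0.05, 16 of them higher in females, and the log2FC of *P2RY12* over all sub-regions was 0.36 (SE 0.09). *CSF1R* in MO was at 196 ± 84.0 CPM in females, the library of animal 6 among them, and 81.0 ± 12.6 CPM in males (FDR 0.857 by edgeR, called by DESeq2). Without animal 6 its log2FC fell from 1.19 to 0.95. Without animal 7, *C1QC*, *TREM2* and *TYROBP* in PIT were called lower in females, at log2FC of -1.36, -2.22 and -2.22. The calls over all genes and fits then numbered 2362, in place of 279 with all animals. Without animal 4 *CSF1R* in PON was called higher in females, at 1.03. With all animals 0 of the 8 genes were called in PIT (0.121% of all genes), where *TYROBP* stood at 0.845 ± 0.251 CPM in females and 3.22 ± 1.68 CPM in males (FDR 0.221). The 2 PIT libraries with the highest sums of anterior pituitary genes were both from females. The part of those genes in this difference was not tested. Groups that did not overlap were found in 9 tests with females higher (0.89% over all genes) and in 2 with them lower (1.07%).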

How the data were processed

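Total RNA depleted of ribosomal RNA was sequenced from 51 sub-regions of the brain in each of 8 rhesus macaques. The authors checked reads with FastQC 0.11.4, used Trim Galore 0.4.4 to trim the poorer samples, aligned reads with HISAT2 2.0.5 to the Mmul 8.0.1 genome, and counted them on Ensembl genes with HTSeq 0.6.1. They deposited whole-number counts per gene, not normalized. The strand option of the counting is not given in the sources used here, so that reads of overlapping antisense genes cannot be told apart. Gene IDs were paired with symbols by the reference table, and those of *C1QB* and *CX3CR1* by the study's supplement.

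Counts were scaled by TMM, filtered by filterByExpr and tested by edgeR 4.0.16 (quasi-likelihood F test, R 4.3.3, limma 3.58.1). P-values were adjusted over all genes tested by the Benjamini-Hochberg method. The SE of a log2FC is its size divided by the square root of F. Comparisons between regions had the animal as a block, since the labels tie the samples of an animal together: deviations of libraries of the same animal had a median correlation of 0.311 over 960 pairs of groups, and of different animals -0.0486. Each group has 1 library per animal and sub-region, and the 8 animals are the replicates. No 2 libraries of the same sub-region were alike within sampling noise (chi-square per degree of freedom at least 8.62 over 1428 pairs). Libraries of different sub-regions were not compared in this way. Ratios were tested by exact sign-flip permutation on log2(CPM + 0.5). Simulated data had 100 genes changed 2-fold and 100 changed 4-fold. Of these 56% and 95% were recovered for SN against the cortex over 17706 genes. For age stage in GP 34% and 91% were recovered over 15651 genes. Recovery was counted by the FDR alone, without the 2-fold limit that these calls also needed. The simulated counts had the same dispersion for every gene and no other differences between animals or groups. The shares are therefore not the power of the calls reported here. Alternatives were DESeq2 1.42.0, its size factors in edgeR, another filter, fits without the block or covariate, 51 sub-regions as levels, and each animal left out. Figures were drawn with matplotlib 3.10.9.

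The genes and lists were chosen with earlier results of these data known. Named list genes are, for each list, comparison and direction, up to 3 called genes with the largest absolute log2FC and a mean of 1 CPM or more where higher, and every ligand and partner, except that some genes of these lists are counted but not reported here by name. *RUNX1* in OB, *C1S* in CB, and the leukocyte and pituitary genes are named beside these. The 33 ATAC-seq and 8 midbrain samples were not analysed here.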

Additional observations from a re-analysis of the deposited data

Results flagged for a closer look

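In 21 sets of 8 animals, 1 set for each of 8 genes in each of 16 region groups, the highest or lowest animal lay apart from the others, its gap to the nearest exceeding Dixon's limit for 8 values as a share of the whole range. Chance flags about 1 set in 20 where values are normally distributed, and the CPM were used here without a log scale. The 8 genes share libraries, so that these sets are not independent. Most of these were high values of animal 6. They were *CSF1R* in HIP at 82.2 CPM and in CB at 39.1 CPM, *C1QB* in STR at 44.996 CPM, in GP at 113 CPM, in CC at 68.4 CPM and in MO at 102 CPM, and *C1QC* in HIP at 34.4 CPM, in GP at 73.4 CPM and in CC at 40.8 CPM. Likewise in animal 6 were *CX3CR1* in HIP at 55.7 CPM and in CB at 21.1 CPM, *TREM2* in CC at 32.4 CPM, in MO at 45.006 CPM and in CB at 3.32 CPM, and *TYROBP* in CC at 30.994 CPM.

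In animal 3 the hypothalamus library stood high for *C1QB* at 52.4 CPM, *TREM2* at 14.8 CPM and *TYROBP* at 15.8 CPM, where the nearest other animals were at 34.3, 6.32 and 7.33 CPM. *PTPRC* in PIT was high in animal 3 at 10.3 CPM, with the nearest at 5.15 CPM, and *CX3CR1* in VTA was low in animal 3 at 24.7 CPM, with the nearest at 41.5 CPM. *P2RY12* in PIT was high in animal 7 at 5.00 CPM, with the nearest at 1.28 CPM.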

How the results depend on the processing

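Of the 120 pairs of a gene and a group, 64 were called against the cortex (62 higher, 2 lower). Other settings gave 69 with DESeq2, with its size factors in edgeR or with 51 sub-regions as levels, 59 with the other filter (3 or more samples with a count over 1), 67 with no replicate block and 63 to 68 with 1 animal left out. The FDR with no fold limit gave 108 (98 higher, 10 lower). Leaving out the hypothalamus and medulla libraries of animal 6, chosen after seeing the data, gave 64. Directions reversed only for values near 0 whose FDR was above 0.05. *C1QB* in PON was -0.0408 with the other filter, and from -0.0338 (without replicate 11) to 0.145 with 1 animal left out. *TYROBP* in CB was 0.0109 with no replicate block. *PTPRC* in CB was 0.000967 with DESeq2's size factors, 0.0699 with no replicate block, 0.0375 with 51 levels, and from -0.117 (without replicate 6) to 0.0834 (without replicate 4) with 1 animal left out, also above 0 without replicate 8. *C1QC* in PIT was -0.0732 with the other filter, and from -0.265 (without replicate 3) to 0.143 with 1 animal left out, also below 0 without replicate 8. Of the neighbouring groups 11 differed with no replicate block, in place of 17, and over lobes 7 of 8 genes were called, without *TREM2*. The other settings, and each animal left out, gave 8 of 8 over lobes. Within HIP, STR and CB the count was 0 under every setting with the fold limit and 4 by the FDR alone. DESeq2 called 1 test for age stage, *CX3CR1* in PIT (lower in mid-aged animals), and 1 for sex, *CSF1R* in MO (higher in females), where edgeR called 0. With 1 animal left out edgeR called 0 for age stage and 0 to 3 for sex. Median counts of 32 to 46 per library limit the precision of *TREM2*, *TYROBP* and *PTPRC*. The causes of these changes were not tested.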
